A study of Mus musculus with 6 samples.

Results

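The Bcl2 family holds the proteins that decide whether the mitochondrial outer membrane stays closed or is opened to release cytochrome c, and 10 of its genes were followed here in pancreatic islets of mice with the transcription factor gene Neurod1 deleted in beta cells. They were picked by symbol from the deposited count tables as 3 survival genes (Bcl2, Bcl2l1 and Mcl1), 2 effector genes (Bax and Bak1) and 5 BH3-only genes (Bid, Bad, Bbc3, Pmaip1 and Bcl2l11). The 10 members are part of 23284 genes in the tables, and each of the 10 was among the 14770 genes with enough counts to be tested. Bulk RNA-seq libraries of isolated islets were made from mice of 12 weeks in 2 groups of 3. The knockout mice (libraries 4, 5 and 6) had the genotype Neurod1-floxed/floxed; Rip-Cre+, so that Cre recombinase under the rat insulin promoter deletes Neurod1 in beta cells while other islet cells keep it. The control mice (libraries 7, 10 and 16) were Neurod1-floxed/floxed without Cre, and both groups were on a strain given in the labels as C56BL/J. Because controls carry no Cre, the transgene and the deletion cannot be told apart, and since separate animals are not named per library, the p-values speak only to the spread between these libraries.

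In a healthy cell the survival proteins bind and hold the effectors, and the BH3-only proteins carry stress signals that block the survival proteins or activate the effectors directly. Freed Bax and Bak form pores, cytochrome c leaves the mitochondria, and the apoptosome with caspase-9 starts the executioner caspases. Beta cells are known to depend on this balance under endoplasmic reticulum stress and cytokine exposure, and Bcl-x, the product of Bcl2l1, also acts in their mitochondrial metabolism. Much of the control of the family lies in protein binding, phosphorylation and turnover, which RNA counts do not show.

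Depth was 12206393 to 16473159 counts per library in the knockout and 14424767 to 20412435 in the control. Neurod1 was at 28.4, 29.7 and 31.2 CPM (counts scaled to library size with TMM factors) in knockout libraries 4, 5 and 6, against 198, 177 and 140 CPM in control libraries 7, 10 and 16, with every knockout library below every control (log2 fold change -2.53, SE 0.13, adjusted p = 1.74e-05). Markers of other cell types also differed between the groups. None of the 20 acinar markers was at 0 in all libraries, and the list took 0.475% to 1.39% of the counts in the knockout and 1.36% to 4.75% in the control, with 2 of 20 members called lower. Endothelial markers took 0.0729% to 0.0836% in the knockout and 0.111% to 0.114% in the control, with 10 of 12 called lower. Of alpha cell markers 2 of 7 were lower, with 2.73% to 3.50% of knockout and 3.73% to 5.15% of control libraries, and of stellate and fibroblast markers 3 of 10 were lower. Duct markers had a mean log2 CPM of 4.96 to 5.23 in knockout and 4.28 to 4.67 in control libraries, with 1 of 6 higher and 2 lower. In bulk islets fewer cells of a type and less RNA per cell cannot be told apart, and the part of these shares in the results was not tested beyond the covariate fits. Beta cell markers were present in every library, at 14.1% to 15.6% of knockout and 17.7% to 19.7% of control libraries, with 5 of 12 higher and 3 lower. Their mean log2 CPM was 10.5 to 10.7 in both groups. The lower ones were Ins1, an insulin gene that fell by 91.2% in knockout islets, G6pc2 and Slc30a8. Slc2a2, Pdx1, Nkx6-1, Glp1r and Ero1lb were higher. Ins2, the more abundant insulin gene, averaged 112998 CPM over knockout and 110920 over control libraries (log2 0.03, adjusted p = 0.873).

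In knockout islets 3 of the 10 members were lower (adjusted p under 0.05), with Bax, Bcl2l11 and Bcl2l1 falling by 23.7%, 24.3% and 30.6%. None was higher, and 7 did not pass. Across all genes tested, 12.6% were lower and 11.8% higher, 24.4% in all, so the 30.0% of members called in either direction is near the background of 24.4%. The 3 lower members stand beside 12.6%, but their number was 1 in each of 5 fits that left out 1 library (any but control library 7). It was 1 with an acinar and 0 with an endothelial marker covariate. All genes called fell too, from 1736 higher and 1864 lower to 730 and 617 (acinar) and 17 and 5 (endothelial). Both marker levels (mean log2 CPM) were lower in every knockout library than in any control library, so these fits cannot cleanly separate them from the genotype. With the endothelial covariate even Neurod1 missed the threshold (adjusted p = 0.0564). The same 3 members were the ones whose knockout and control values did not overlap, a state that holds for 42.0% of all genes tested in either direction and for 22.0% toward lower values in the knockout. The log2 fold change was negative for 9 of the 10, with a median of -0.32, against 7538 of 14770 genes and a median of -0.01 for all genes tested. The members that fell were a survival gene, an effector and a BH3-only gene, 1 of 3, 1 of 2 and 1 of 5 in their roles.

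**Figure D1:**
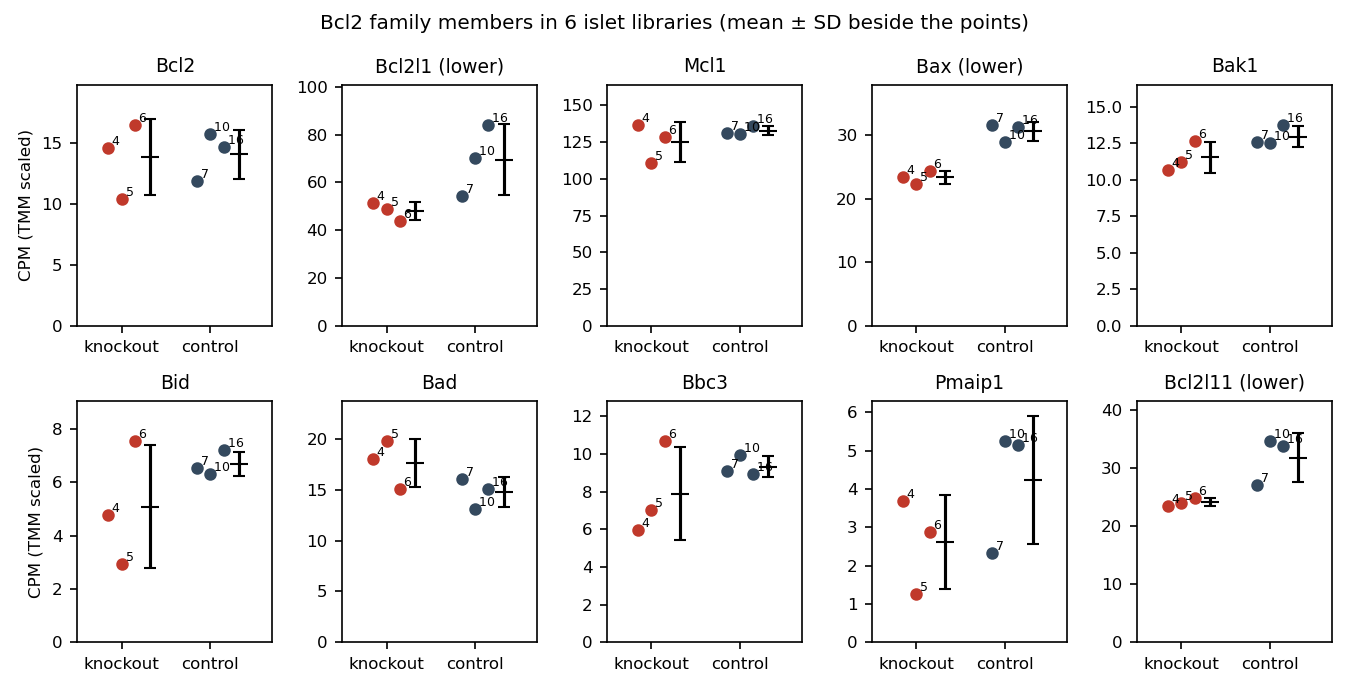
CPM (TMM scaled, vertical axis from 0) of each member in knockout libraries 4, 5 and 6 (red) and control libraries 7, 10 and 16 (dark), with the mean and SD of each group beside the points. Bax, Bcl2l11 and Bcl2l1 are the panels in which every knockout point lies below every control point, for example 22.3 to 24.4 CPM in the knockout and 28.9 to 31.6 CPM in the control for Bax.

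The start regions of these 3 genes are shown because they are the members that fell together and because Neurod1, with its E protein partners, binds E-boxes of the form CANNTG, with CAGATG among its preferred forms. Each sequence runs from 250 bases before to 50 bases after a RefSeq transcription start (GRCm38.p6, a later build than the mm9 of the counts), taken at the start farthest upstream, with CANNTG matches in capitals. The windows are chr7:45466849-45467148 on the minus strand for Bax, chr2:128125788-128126087 on the plus strand for Bcl2l11 and chr2:152831679-152831978 on the minus strand for Bcl2l1.
Bax: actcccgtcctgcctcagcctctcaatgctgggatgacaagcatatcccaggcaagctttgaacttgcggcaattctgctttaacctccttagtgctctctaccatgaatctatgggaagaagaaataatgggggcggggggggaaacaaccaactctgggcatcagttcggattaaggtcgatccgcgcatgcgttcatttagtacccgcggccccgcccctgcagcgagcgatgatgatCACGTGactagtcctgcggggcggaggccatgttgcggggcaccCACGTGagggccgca
Bcl2l11: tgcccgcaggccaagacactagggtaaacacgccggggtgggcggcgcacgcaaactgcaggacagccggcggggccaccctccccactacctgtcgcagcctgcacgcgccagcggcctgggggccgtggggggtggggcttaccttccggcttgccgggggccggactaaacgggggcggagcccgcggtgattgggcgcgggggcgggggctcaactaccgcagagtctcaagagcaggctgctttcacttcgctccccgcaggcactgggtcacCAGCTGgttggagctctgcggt
Bcl2l1: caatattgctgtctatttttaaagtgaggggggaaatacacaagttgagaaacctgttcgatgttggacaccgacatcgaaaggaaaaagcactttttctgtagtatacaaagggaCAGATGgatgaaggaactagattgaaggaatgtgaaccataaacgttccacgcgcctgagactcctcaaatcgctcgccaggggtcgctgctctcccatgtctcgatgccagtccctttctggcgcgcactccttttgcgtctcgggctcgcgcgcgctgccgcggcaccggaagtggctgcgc
Bax holds 2 matches and both read CACGTG, Bcl2l11 holds 1 that reads CAGCTG, and Bcl2l1 holds 1 that reads CAGATG. Bcl2l1 has 3 starts, and the windows not shown hold 1 CANNTG match each and no CAGATG. Bcl2l11 has 2 starts, and the window not shown holds no CANNTG. The pattern CANNTG is palindromic and covers the other forms, and the CAGATG search took in the opposite strand as well. Among 32851 such windows of all genes 72.3% hold CANNTG, 17.2% hold CAGATG and 16.3% hold CAGCTG. Of the 15 windows taken for 9 of the 10 members (none was taken for Pmaip1), 10 hold CANNTG, 1 holds CAGATG and 1 holds CAGCTG. Members' windows had a median GC content of 65.7% and a median of 27 CpG, against 52.7% and 7 over all windows. A match is a run of letters and not a site shown to be bound.

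Bcl2l1 encodes Bcl-xL, which holds Bax and Bak in check, and a shorter splice form with the opposite action that gene counts do not separate. It had 51.5, 49.0 and 44.0 CPM in knockout libraries 4, 5 and 6, against 54.3, 70.2 and 84.1 CPM in control libraries 7, 10 and 16. Every knockout library was below every control library, with a gap of a few CPM to control library 7, and the spread was wider in the control (mean 48.1 ± 3.81 CPM over knockout and 69.6 ± 14.9 over control libraries; SD, n = 3 per group). In edgeR's quasi-likelihood fit this was a log2 fold change of -0.53 (SE 0.15, 95% interval -0.88 to -0.17, adjusted p = 0.0427). This call was close to the threshold: it was lost in 5 of the 6 fits that left out 1 library (adjusted p from 0.0788 to 0.130, the exception being control library 7), with limma-voom (0.0552) and with no filter on low counts (0.0600). Adding acinar marker level as a covariate gave -0.95 (adjusted p = 0.0177), and adding the endothelial one 0.10 (adjusted p = 0.948). The endothelial level follows the genotype, so that fit cannot separate them.

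Mcl1 encodes a short-lived survival protein that guards Bak and is bound by Noxa, the product of Pmaip1. It had 137, 110 and 128 CPM in the knockout libraries, against 131, 131 and 136 CPM in the control libraries. Knockout library 5 was the lowest of the 6, while library 4 was the highest, so the groups overlapped. The log2 difference was -0.08 (SE 0.08, adjusted p = 0.506), with a 95% interval from -0.28 to 0.11.

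Bcl2, the founding survival gene of the family, had 14.6, 10.4 and 16.5 CPM in knockout libraries 4, 5 and 6, against 11.9, 15.8 and 14.7 CPM in the control libraries. The groups overlapped fully, and the log2 difference of -0.03 (SE 0.18, adjusted p = 0.931) had a 95% interval from -0.44 to 0.39. That interval reaches a fall as large as that of Bax, so these libraries do not show that Bcl2 was the same in both groups.

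Among the effectors, Bax had 23.4, 22.3 and 24.4 CPM in the knockout libraries, against 31.6, 28.9 and 31.3 CPM in the control libraries. Bax encodes the mostly cytosolic pore former that moves to mitochondria on activation. The groups were well apart relative to their spread (mean 23.4 ± 1.05 CPM over knockout and 30.6 ± 1.49 over control libraries; SD, n = 3 per group). The log2 fold change was -0.39 (SE 0.08, 95% interval -0.58 to -0.20, adjusted p = 0.0104). Bax was called lower without any 1 library, and it missed the threshold once acinar (-0.41, adjusted p = 0.118) or endothelial (-0.60, adjusted p = 0.368) marker level was a covariate. Neither estimate was nearer to no difference than -0.39. Both marker levels were lower in every knockout library, so these fits cannot cleanly separate them from the genotype.

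Bak1, which encodes the effector that sits in the outer mitochondrial membrane, had 10.7, 11.3 and 12.7 CPM in the knockout libraries. It had 12.6, 12.5 and 13.8 CPM in the control libraries. Knockout library 6 lay just inside the control range, and the log2 difference of -0.17 (SE 0.11, 95% interval -0.43 to 0.09) did not pass (adjusted p = 0.319). The difference between the falls of Bax and Bak1 was not tested.

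Bcl2l11 encodes Bim, a BH3-only protein that binds every survival protein and is a known mediator of beta cell death. It had 23.4, 23.97 and 24.8 CPM in knockout libraries 4, 5 and 6, against 27.0, 34.6 and 33.8 CPM in control libraries 7, 10 and 16. The knockout libraries lay close to each other and below all controls, of which library 7 was the nearest. The log2 fold change was -0.40 (SE 0.11, 95% interval -0.65 to -0.16, adjusted p = 0.0267). It missed the threshold in 5 of the 6 fits that left out 1 library (0.0619 to 0.0992, all but control library 7). The same held once acinar (-0.49, adjusted p = 0.137) or endothelial (-0.43, adjusted p = 0.646) marker level was a covariate. As for Bax, these covariate fits cannot cleanly separate marker level from genotype.

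Bad, a BH3-only protein that growth factor signalling through Akt holds inactive by phosphorylation, was the member with a positive difference. It had 17.98, 19.8 and 15.1 CPM in the knockout libraries, against 16, 13.1 and 15.1 CPM in the control libraries. Knockout libraries 4 and 5 were above all controls and library 6 was not. The log2 difference of 0.26 (SE 0.13, 95% interval -0.03 to 0.55) did not pass (adjusted p = 0.176).

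Bid, which caspase-8 cuts to link death receptors to mitochondria, had 4.79, 2.95 and 7.55 CPM in knockout libraries 4, 5 and 6, against 6.55, 6.32 and 7.20 CPM in the control libraries. Bbc3 encodes Puma, a p53 target, and had 5.95, 7.03 and 10.7 CPM in the knockout libraries, against 9.08, 9.95 and 8.91 CPM in the control libraries. In both genes knockout libraries 4 and 5 lay below every control library and library 6 lay above every one, so the knockout spread was several times the control spread. Their log2 differences were -0.40 (SE 0.30, adjusted p = 0.368) for Bid and -0.25 (SE 0.21, adjusted p = 0.425) for Bbc3. Bid was at -0.13 without knockout library 5 and at -0.77 without knockout library 6, and Bbc3 was at -0.06 without knockout library 4 and at -0.51 without knockout library 6.

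Pmaip1, which encodes Noxa, was the least abundant member by CPM, and its raw counts were 60, 19 and 36 for knockout libraries 4, 5 and 6, against 45, 107 and 75 for control libraries 7, 10 and 16. Scaled to CPM this gave 3.68, 1.27 and 2.89 for knockout and 2.32, 5.24 and 5.14 for control libraries. Control library 7 lay within the knockout range, and the log2 difference of -0.69 (SE 0.44) had a 95% interval from -1.70 to 0.33 (adjusted p = 0.293). It was -0.35 without knockout library 5 and -1.02 without knockout library 4. Knockout library 5 was the lowest of the 6 for Bcl2, Mcl1, Bax, Bid and Pmaip1. Leukocyte markers held 0.0361%, 0.0163% and 0.0491% of knockout libraries 4, 5 and 6 and 0.0142% to 0.0272% of control libraries, and 1 of 11 was called lower. The ribosomal RNA gene Rn45s held 2.56%, 0.325% and 3.58% of knockout libraries 4, 5 and 6 and 0.396% to 1.69% of control libraries. The part of either in these members was not tested.

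**Figure D2:**
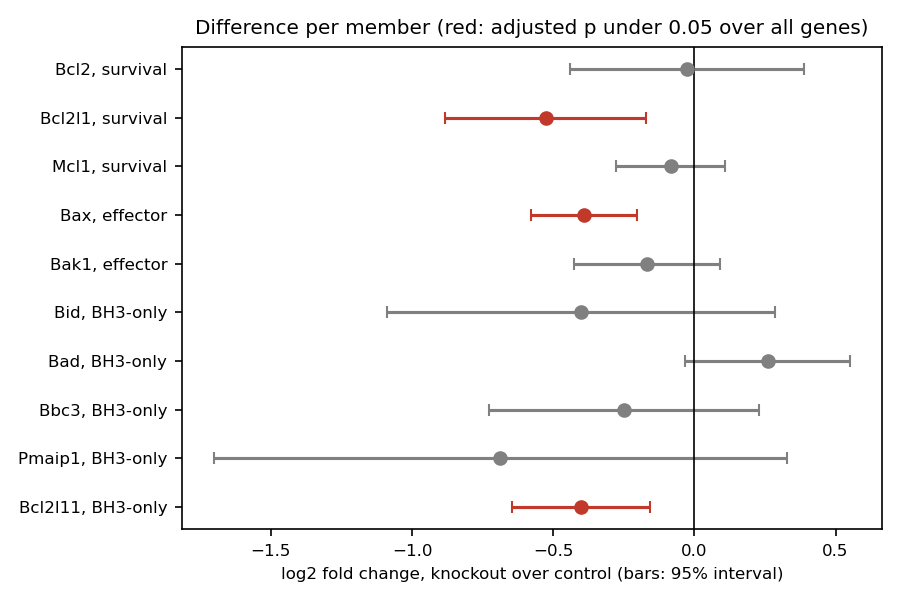
Log2 fold change of each member, knockout over control (horizontal axis), ordered by role from survival genes at the top to BH3-only genes at the bottom, with 95% intervals from edgeR. The intervals of Bcl2l1, Bax and Bcl2l11 (red) lie below 0, Bad is the single point above 0, and the interval of Pmaip1 is the widest, from -1.70 to 0.33.

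Levels of different genes were compared per kilobase of the longest GENCODE M21 transcript. In this unit, CPM per kb, Mcl1 averaged 36.6 ± 3.93 over knockout and 38.8 ± 0.882 over control libraries (SD, n = 3 per group). Bax came next with 26.9 ± 1.21 over knockout and 35.3 ± 1.72 over control libraries, then Bcl2l1 with 18.7 ± 1.48 over knockout and 27.1 ± 5.80 over control libraries. Bad followed with 11.5 CPM per kb for knockout and 9.61 for control libraries. Bcl2l11, Bak1 and Bbc3 lay between 4.35 and 4.83 in the knockout and between 5.13 and 6.31 in the control, and their ranges over the 6 libraries overlapped. Bid, Bcl2 and Pmaip1 were lowest, with 2.33, 1.93 and 0.959 CPM per kb for knockout and 3.06, 1.96 and 1.55 for control libraries. Over the 6 libraries the ranges of Mcl1 and Bax overlapped, as did those of Bax and Bcl2l1, whereas Bcl2l1 stood clear of Bad and Bad stood clear of Bcl2l11. These ranges pool the 2 groups. Within each library, at these lengths, Mcl1 was above Bax and Bax above Bcl2l1. The order depends on which transcript is used, since those of Bad run from 540 to 1533 bases and those of Mcl1 from 858 to 3418. Those of Bcl2l11 run from 672 to 5036 bases, so its place below Bad rests on the use of the longest transcript.

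Since survival proteins are opposed by effectors and BH3-only proteins, the ratio of counts of opposed genes was taken within each library. The log2 ratio of Bcl2 to Bax was -0.68, -1.09 and -0.56 in knockout libraries 4, 5 and 6, against -1.41, -0.87 and -1.09 in control libraries 7, 10 and 16, a difference of 0.35 (exact two-sided permutation p = 0.2). Bcl2l1 to Bax differed by -0.12 (exact p = 0.6), with means of 1.04 ± 0.17 for knockout and 1.16 ± 0.34 for control libraries (SD, n = 3 per group). Mcl1 to Bak1 differed by 0.08 (exact p = 0.9) and Mcl1 to Pmaip1 by 0.63 (exact p = 0.3), which was 0.28 without knockout library 5 and 1.01 without control library 7. The groups overlapped in each of the 4 ratios, and with 3 libraries against 3 the smallest p this test can give is 0.1. Bcl2l1 and Bax were both lower in the knockout, and their ratio overlapped between the groups.

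**Figure D3:**
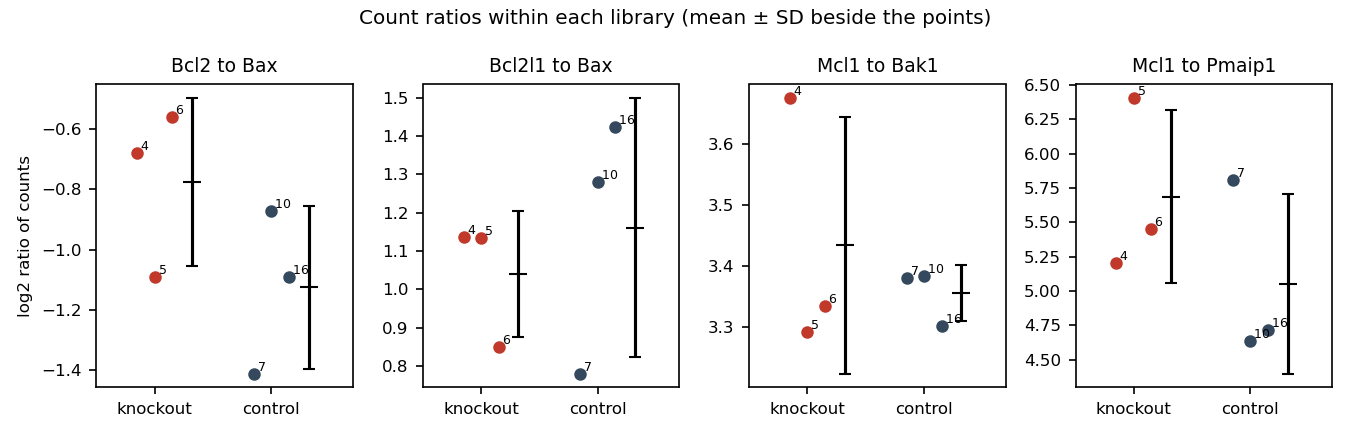
Log2 ratio of counts (vertical axis, which does not start at 0) for 4 pairs of members in knockout (red) and control (dark) libraries, numbered as in the labels, with mean and SD beside the points. Knockout and control ranges overlap in every panel, with group means 0.35 apart for Bcl2 to Bax and 0.63 apart for Mcl1 to Pmaip1.

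The rest of the family was read from a list of 16 further genes, 10 of which could be tested. Of these 4 were higher in the knockout, 0 were lower and 6 did not pass, beside a background of 11.8% of all genes tested called higher. The list median was 0.24. Bcl2l2, which encodes the survival protein Bcl-w, had 183, 191 and 174 CPM in knockout libraries 4, 5 and 6, against 157, 136 and 152 CPM in control libraries 7, 10 and 16. All knockout libraries lay above all controls, and the log2 fold change was 0.30 (SE 0.08, adjusted p = 0.0219). Bcl2l13, a mitochondrial membrane protein that acts as a mitophagy receptor, averaged 75.2 ± 6.63 CPM over knockout and 57.6 ± 0.692 over control libraries (0.39, SE 0.08, adjusted p = 0.00747). Bcl2l14 was rare and higher, with 3.39 ± 0.796 CPM over knockout and 1.49 ± 0.220 over control libraries (1.19, SE 0.28, adjusted p = 0.0154). Bnip3l, the mitophagy receptor Nix, was called at 0.20 (adjusted p = 0.0492), and missed the threshold in 5 of the 6 fits that left out 1 library. Without knockout library 5 or control library 10 this list had 1 call higher. Once acinar marker level was a covariate it had 0, with Bcl2l13 at 0.42, Bcl2l14 at 1.29, Bcl2l2 at 0.28 and Bnip3l at 0.16. That fit called 730 genes higher in all, against 1736 without the covariate. The BH3-only genes Bmf (-0.49, adjusted p = 0.0708) and Bik (-0.76, adjusted p = 0.142), both chosen after their values were seen, did not pass. Bnip3 (-0.54, adjusted p = 0.157), named in the same way, did not pass either. The groups did not overlap in any of these genes, a state that holds toward lower knockout values for 22.0% of all genes tested. Bcl2a1 is a family of near copies whose reads the counting may split, and Bcl2a1b, the single tested copy, averaged 2.48 CPM over knockout and 1.30 over control libraries (log2 0.89, adjusted p = 0.206).

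Downstream of the mitochondria, 18 genes of the apoptosome, the caspases and their inhibitors were tested, of which 3 were higher, 2 lower and 13 did not pass (27.8% called, near the 24.4% of all genes tested; median 0.04). Xiap, which encodes a direct inhibitor of caspases, had 150, 155 and 146 CPM in knockout libraries 4, 5 and 6, against 92.7, 90.5 and 83.1 CPM in control libraries 7, 10 and 16. The groups were far apart relative to their spread, with a log2 fold change of 0.76 (SE 0.07, adjusted p = 1.33e-04). Birc6, a large ubiquitin ligase of the same inhibitor family, was higher by 0.43 (SE 0.08), and so was Aifm1, which encodes the flavoprotein AIF of the mitochondrial intermembrane space, by 0.38 (SE 0.08). Dffb, the nuclease that cuts DNA once caspases act, averaged 5.28 ± 0.990 CPM over knockout and 10.1 ± 1.197 over control libraries (SD, n = 3 per group), a log2 fold change of -0.95 (SE 0.18, adjusted p = 0.00581). Casp6, an executioner caspase, averaged 6.15 CPM over knockout and 10.3 over control libraries (log2 -0.75, SE 0.14, adjusted p = 0.00625). Once acinar marker level was a covariate the list had 3 calls higher and 0 lower, with Dffb at -0.57 (adjusted p = 0.230) and Casp6 at -0.61 (adjusted p = 0.168). Among those that did not pass were Casp9 (0.04) and Apaf1 (-0.04), which encodes the apoptosome scaffold, both named after their values were seen.

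Upstream of Bid, 3 of 11 tested genes of the death receptor pathway were higher, 0 were lower and 8 did not pass (27.3% called, near the 24.4% of all genes tested; median 0.10). Tnfrsf21, death receptor 6, had 67.0, 74.8 and 49.2 CPM in knockout libraries 4, 5 and 6, against 23.6, 20.2 and 26.5 CPM in control libraries 7, 10 and 16. Each knockout library was above each control library, and the fold was 2.73 (log2 1.45, SE 0.17, adjusted p = 0.00119). The tumour necrosis factor receptor gene Tnfrsf1a was at 0.33 (SE 0.07, adjusted p = 0.0131). Cflar, which encodes the caspase-8 inhibitor FLIP, was at 0.26 (SE 0.08, adjusted p = 0.0497) and missed the threshold in 5 of the 6 fits without 1 library. Without control library 10 the list had 1 call. Once acinar marker level was a covariate it had 0, with Tnfrsf21 at 1.21 (adjusted p = 0.0612), Tnfrsf1a at 0.29 and Cflar at 0.13, in the fit with 730 genes higher in all.

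Of 16 tested genes of p53 and its targets, 2 were higher, 3 lower and 11 did not pass (31.2% called, beside 24.4% of all genes tested; median 0.00). Cdkn1a, the cell cycle inhibitor p21, had 27.6, 16.9 and 18.3 CPM in knockout libraries 4, 5 and 6, against 39.7, 56.6 and 55.2 CPM in control libraries 7, 10 and 16. It was lower in every knockout library, with a log2 fold change of -1.26 (SE 0.22, adjusted p = 0.00936). Trp53i13 (-0.77, SE 0.10) and the stress gene Sesn1 (-0.51, SE 0.10) also fell. Zmat3 (0.25) and Ccng1 (0.23) were higher, and neither was called in 5 of the 6 fits without 1 library (all but knockout library 6) or once acinar marker level was a covariate. The p53 target Bbc3 did not pass, and Bax, also a p53 target, was lower. Trp53 itself was at -0.10 (adjusted p = 0.506) and its inhibitor Mdm2 at 0.01 (adjusted p = 0.919), both named after their values were seen.

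Of 27 genes that act on the members outside p53, 5 were higher, 3 lower and 19 did not pass (29.6% called, beside 24.4% of all genes tested; median -0.03). Both the ubiquitin ligase gene Huwe1, known to mark Mcl1 for breakdown, and the deubiquitinase gene Usp9x, known to protect it, were higher. Huwe1 averaged 533 ± 33.6 CPM over knockout and 386 ± 32.7 over control libraries (0.47, SE 0.09, adjusted p = 0.00733), and Usp9x averaged 444 ± 34.3 CPM over knockout and 305 ± 55.8 over control libraries (0.54, SE 0.14, adjusted p = 0.0215). Tmbim6, which encodes Bax inhibitor 1 of the endoplasmic reticulum, was at 0.45 (SE 0.07, adjusted p = 0.00307) and Stat3 at 0.31 (SE 0.08, adjusted p = 0.0178). Akt1, a kinase that phosphorylates Bad, was at -0.43 (SE 0.07, adjusted p = 0.00338). Atf4, a transcription factor of the stress response, was lower at -0.36 (SE 0.09, adjusted p = 0.0190). Its known target Trib3, a pseudokinase that binds Akt, had 2.21, 1.54 and 2.17 CPM in knockout libraries 4, 5 and 6, against 10.8, 7.84 and 4.94 CPM in control libraries 7, 10 and 16 (log2 -1.997, SE 0.31, adjusted p = 0.00265). The mitochondrial channel gene Vdac1, the fifth higher gene and named after its value was seen, was at 0.23 (adjusted p = 0.0489). The list had 3 calls higher without knockout library 5, control library 7 or control library 10, and 1 once acinar marker level was a covariate.

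**Figure D4:**
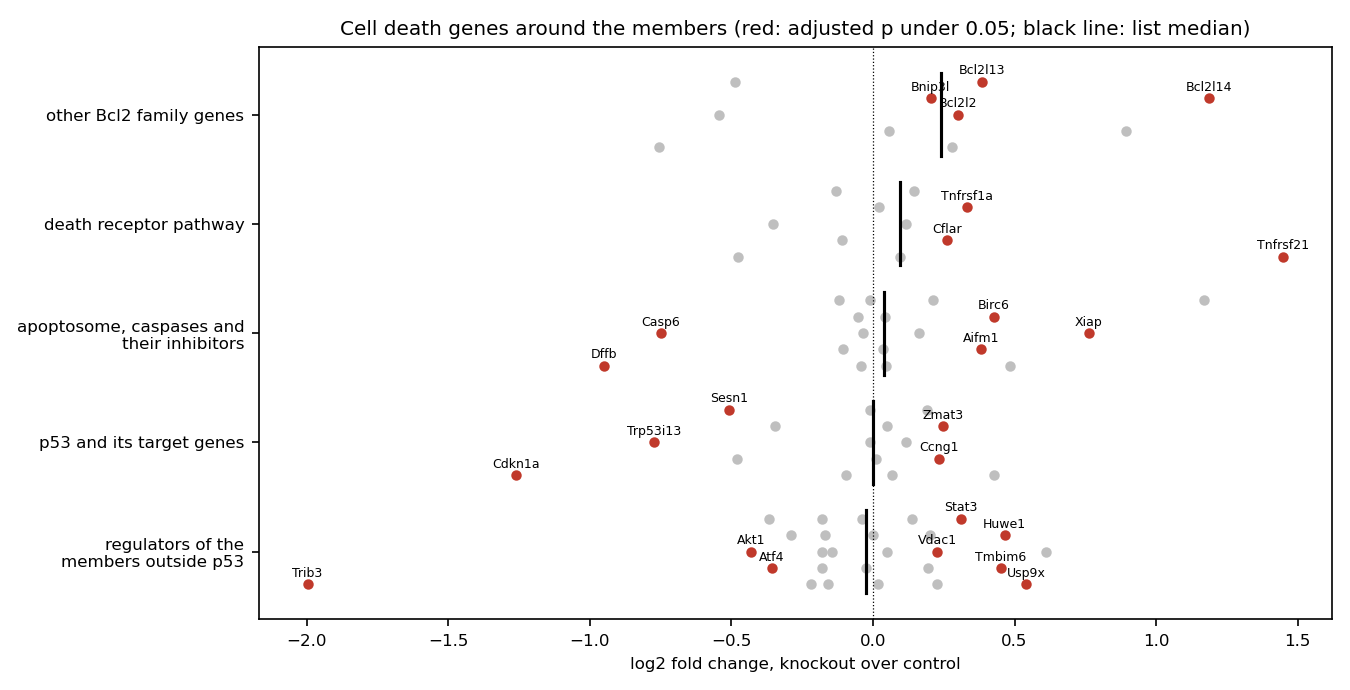
Log2 fold change, knockout over control (horizontal axis), of the tested genes in the 5 lists around the members, 1 row per list, with called genes in red and named, other genes in grey and the list median as a black line. List medians lie between -0.03 and 0.24, and the points farthest from 0 are Trib3 at -1.997 and Tnfrsf21 at 1.45.

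The deposited table of the authors gave the same direction for each member and no member under 0.05. In the authors' deposited table the log2 fold changes were -0.39 for Bcl2l11 (adjusted p = 0.0653), -0.37 for Bax (adjusted p = 0.0792) and -0.51 for Bcl2l1 (adjusted p = 0.149). That table calls 12.8% of its 19440 genes with a p-value. DESeq2, which called 23.0% of its 15707 genes, also called these 3 members lower (adjusted p = 0.0286, 0.0115 and 0.00673 for Bcl2l11, Bax and Bcl2l1).

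**Figure D5:**
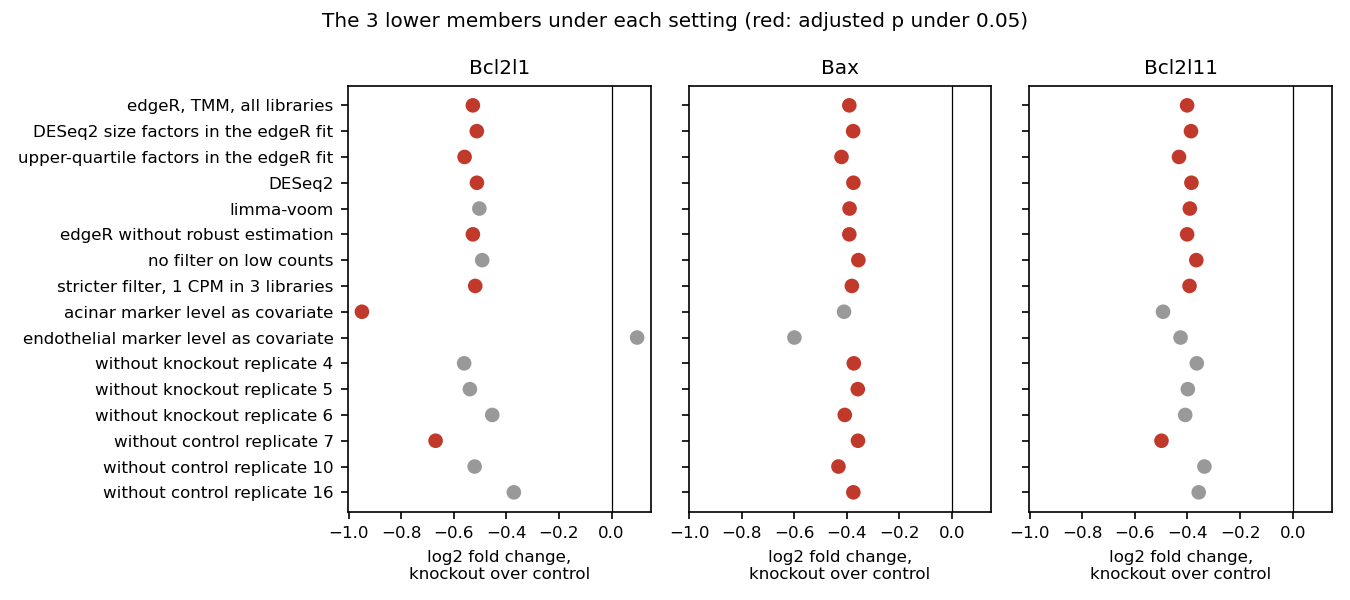
Log2 fold change, knockout over control (horizontal axis), of Bcl2l1, Bax and Bcl2l11 under each of 16 settings (rows), in red where the adjusted p was under 0.05. Bax is red in 14 of the 16 rows, and Bcl2l1 has 1 point above 0, with the endothelial marker level as a covariate (0.10).

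For Bax and Bcl2l11, the members with the smallest p, the genes with the nearest centred log2 CPM profile over the 6 libraries were looked up among 9117 and 9108 genes whose mean log2 CPM lay within 2 of the member's. Rtn2, Six5 and Ephx1 were nearest to Bax, at distances of 0.0660 to 0.0749 log2 CPM units, with log2 fold changes of -0.42, -0.40 and -0.35. Cgnl1, Rasgrf1 and Zfp868 were nearest to Bcl2l11, at distances of 0.129 to 0.139, with log2 fold changes of -0.34, -0.33 and -0.36. Closeness over 6 libraries in 2 groups describes these libraries.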

How the data were processed

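Whole-number counts per gene were deposited by the authors for 6 islet libraries, together with their own comparison, which gives the mean of size-factor scaled counts per group (signal), a fold (ratio), its log2 value and p-values. The submitters' processing notes name TopHat2 2.1.0, Cufflinks 2.0.2, DESeq and bcl2fastq 1.8.4, with mm9 as the build. The read-counting program, its annotation and its strand setting were "not given in the sources used here"; reads of overlapping genes may be mixed.

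Counts were fitted in R 4.3.3 with edgeR 4.0.16 (filterByExpr with minimum count 10, TMM, robust quasi-likelihood F test, Benjamini-Hochberg over all 14770 genes tested, threshold 0.05), after a test on simulated data. Standard errors and 95% intervals come from that fit. Alternatives were DESeq2 1.42.0, limma 3.58.1 voom, other scaling and filters, marker covariates and leaving out each library. Replicate libraries differed by 15.9 to 41.5 chi-square per degree of freedom, so none was taken as a repeat. Members and lists were chosen with earlier results of these data known. Named genes were all members and, in each other list, up to 4 called genes per direction with the smallest p, plus the nearest profiles of the 2 members with the smallest p. Pidd1 and Adgre1 were matched under the older symbols Lrdd and Emr1.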

Additional observations from a re-analysis of the deposited data

How the results depend on the processing

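No paired analysis was possible because the groups share no replicate number. With DESeq2 size factors, upper-quartile factors, DESeq2, edgeR without robust estimation and the stricter filter, 3 members were lower, and with limma-voom or no filter on low counts 2 were. Leaving out 1 library gave 1 to 3 lower members, and in each of these fits 0 were higher. Once acinar marker level was a covariate, 1 member was lower, with 730 higher and 617 lower genes in all. In that fit 0 other Bcl2 family genes, 0 death receptor genes and 0 p53 genes were higher, and 3 p53 genes were lower. The caspase list had 3 calls higher and 0 lower, and the regulators had 1 higher and 2 lower. With the endothelial marker level, whose mean log2 CPM of 5.52 to 5.78 in the knockout and 6.16 to 6.22 in the control follows the genotype, 17 genes were higher and 5 lower in all. That fit left 0 members lower, 1 death receptor gene higher, and 0 higher and 0 lower in each other list. Neurod1 itself missed the threshold in it (-2.97, adjusted p = 0.0564). Under DESeq2, 1 other Bcl2 family gene was lower.

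Without 1 library, all genes called were 1153 to 1590 higher and 1225 to 1433 lower, other Bcl2 family genes 1 to 4 higher and 0 to 1 lower, death receptor genes 1 to 3 higher, p53 genes 0 to 2 higher and regulators 3 to 5 higher. In the same fits p53 genes were 3 lower each time, regulators 2 to 4 lower, and caspase genes 3 to 4 higher and 2 lower. Signs turned for Bcl2 without filter (0.0072) and, over the fits without 1 library (-0.16 to 0.14), without knockout library 5 (0.14) and control library 10 (0.06), for Bbc3 with the acinar covariate (0.15), and for Bcl2l1 (0.10) and Stat3 (-0.032) with the endothelial covariate. The cause was not tested. Without 1 library the ratios differed by 0.21 to 0.51 for Bcl2 to Bax, -0.31 to 0.01 for Bcl2l1 to Bax, -0.04 to 0.15 for Mcl1 to Bak1 and 0.28 to 1.01 for Mcl1 to Pmaip1. Depth limits Pmaip1, with 19 to 107 counts per library.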

Other observations

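Genes that overlap a member in the RefSeq gene table of GRCm38.p6 include Cox4i2 for Bcl2l1, Gpr137 for Bad, Ggnbp1 for Bak1 and Acoxl for Bcl2l11. Counts of Cox4i2 were 21, 18 and 9 for knockout libraries 4, 5 and 6, against 33, 27 and 24 for control libraries 7, 10 and 16, far below the 548 to 839 counts of Bcl2l1 in the knockout and 1053 to 1433 in the control, and its log2 difference was -0.52 (adjusted p = 0.285), the same sign as that of Bcl2l1. Acoxl had 2 to 6 counts in the knockout and 9 to 15 in the control. Gpr137 had more counts than Bad, with 445 to 635 in the knockout and 661 to 830 in the control. Whether the value of Bad holds reads of Gpr137 was not tested. The log2 difference of Gpr137 was -0.23 (adjusted p = 0.0728), the opposite sign to that of Bad. Ggnbp1 had 93 to 184 counts in the knockout and 229 to 267 in the control, beside 158 to 174 counts of Bak1 in the knockout and 201 to 255 in the control. The log2 difference of Ggnbp1 was -0.55 (adjusted p = 0.105), the same sign as that of Bak1, and its groups did not overlap.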
